A study of Homo sapiens with 25 samples.

Results

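miR-424, miR-503 and miR-542 are microRNAs (miRNAs) encoded on the X chromosome beside the miR-450a and miR-450b genes, and they were followed here in A2780 cells that overexpress one or the other of those neighbours from a lentiviral vector. The members were the unstarred rows of these 3 miRNAs, 3 of the 1033 human rows of the table of mature miRNAs, and their 3 precursor rows of 557. A2780 is an established human ovarian carcinoma line. The groups were cells with a lentivirus carrying pri-miR-450a, cells with a lentivirus carrying pri-miR-450b, and cells in empty vector cells pLVX, with 3 small RNA libraries in each, so every group had been transduced. The labels do not say which flanking bases the vector inserts hold, or whether a group is 1 clone or a pool, and the spread between its libraries may be technical. The mRNA and Argonaute samples of the series were not analysed here.

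A miRNA is cut from a hairpin in a longer primary transcript, and 1 of its arms is loaded into Argonaute, where the seed near its 5′ end pairs with target mRNAs. Genes of a cluster can be cut from a shared primary transcript, so cluster members often vary together. miR-424 and miR-503 carry seeds of the miR-15/16 type, a family known for restraining the cell cycle through cyclins and related targets. miR-542 has an unrelated seed, and its 3p arm is known for targeting survivin. In the GRCh38.p14 gene table the order along the chromosome was MIR450B, MIR450A1, MIR450A2, MIR542, the long noncoding RNA gene MIR503HG, MIR503 and MIR424. By the RefSeq miRNA table of that build, MIR424 and MIR503 were separated by 215 bases and MIR503 and MIR542 by 4890. MIR542 and MIR450A1 were separated by 909, with MIR450A2 between them. All are on the minus strand. The deposited tables name no genome build.

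The hairpins are shown because their reads are split between arms below. They are given from RefSeq (GRCh38.p14, minus strand) from 5′ to 3′, with the annotated mature arms in capitals. MIR424 lies at chrX:134546614-134546711, MIR503 at chrX:134546328-134546398 and MIR542 at chrX:134541341-134541437. For MIR542 the capitals mark its 5p arm.
MIR424: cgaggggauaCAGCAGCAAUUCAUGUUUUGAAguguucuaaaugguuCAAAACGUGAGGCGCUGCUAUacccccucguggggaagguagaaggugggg
MIR503: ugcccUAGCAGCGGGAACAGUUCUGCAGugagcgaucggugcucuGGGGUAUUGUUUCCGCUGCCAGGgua
MIR542: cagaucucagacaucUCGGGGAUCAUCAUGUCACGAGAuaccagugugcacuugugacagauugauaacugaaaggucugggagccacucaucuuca

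The mature 5p arms are shown with the seed, bases 2 to 8, in capitals, beside miR-16, the most abundant member of the miR-15/16 family in these libraries, and beside the miRNAs of the vectors.
hsa-miR-424-5p: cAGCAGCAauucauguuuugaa
hsa-miR-503-5p: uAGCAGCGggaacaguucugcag
hsa-miR-16-5p: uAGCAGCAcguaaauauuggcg
hsa-miR-542-5p: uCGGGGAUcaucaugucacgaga
hsa-miR-450a-5p: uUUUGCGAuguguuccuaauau
hsa-miR-450b-5p: uUUUGCAAuauguuccugaaua

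The seed AGCAGCA was shared by 6 of the RefSeq miRNAs compared, miR-424-5p, miR-15a-5p, miR-15b-5p, miR-16-5p, miR-195-5p and miR-497-5p. The seed of miR-503-5p differed from that of miR-424-5p at 1 base, A8G, counted from 1 at the 5′ end with the base of miR-424-5p first. Over the whole length, seed included, 12 of 22 aligned bases were equal. miR-542 shares its seed with none of the others shown. In the older names that use a star for the lesser arm, unstarred miR-424 and miR-503 are the 5p arms. The deposited table does not say which arm of miR-542 is unstarred.

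The values deposited are shares of all miRNA reads of a library, multiplied here to give the reads in every 1000000 (RPM). How many reads a library held is not stated, so the depth of each value is unknown. The miR-450a vector libraries stood apart from the rest. Across the 406 mature rows that averaged 10 RPM or more, they correlated at r = 0.72 to 0.74 in miR-450b vector cells libraries and at 0.65 to 0.74 in empty vector cells libraries, against 0.89 to 0.96 between the miR-450b vector and empty vector libraries. All 10 rows of a list of mesenchymal and smooth muscle miRNAs (both arms of miR-199a, miR-199b, miR-214, miR-143 and miR-145) were above 0 in each group. Their summed level was 418 to 573 RPM in miR-450a vector libraries, 205698 to 251407 in miR-450b vector libraries and 179692 to 258394 in empty vector libraries. Epithelial miR-200 family rows summed to 279.8 to 369.5, 88.7 to 153.3 and 68.0 to 90.3 RPM in the same order of groups, with the starred arm of miR-429 at 0 in all 9 libraries and that of miR-200b at 0 in miR-450b vector cells. Blood cell miRNAs summed to 198 to 360, 139 to 317 and 162 to 327 RPM, with the starred arm of miR-223 at 0 in the miR-450a vector and empty vector groups, and the arms of endothelial miR-126 to 649 to 2226, 902 to 1390 and 1032 to 1972 RPM. A row for the SV40 miRNA miR-S1-3p stood at 47.8 to 73.4 RPM in miR-450a vector cells, 0 to 0.501 in miR-450b vector cells and 0 to 0.267 in empty vector cells. No list of miRNAs that define ovarian carcinoma cells was used, so the cell type itself was not checked, and these values leave it in doubt whether the miR-450a vector libraries hold RNA of the same cells as the other 6. In every comparison that uses them, a difference made by the vector and one made by another origin of the RNA cannot be told apart. In bulk RNA, fewer cells of a type and less of a miRNA per cell cannot be told apart. What part these differences between libraries have in the results below was not tested.

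miR-503 was the neighbour with the clearest difference. It stood at 1854, 2165 and 1811 RPM in miR-450a vector libraries, at 417, 459 and 477 in miR-450b vector libraries and at 466, 394 and 439 in empty vector libraries. The 3 miR-450a vector libraries lay far above the other 6, which overlapped each other. Its spread was small, with a coefficient of variation of 9.92% in miR-450a vector cells, 6.81% in miR-450b vector cells and 8.35% in empty vector cells. It ranked 63rd to 77th among human rows in miR-450a vector cells, 113th to 125th in miR-450b vector cells and 125th to 136th in empty vector cells.

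miR-424, the most abundant of the 3, was more variable. It stood at 2197, 3804 and 2498 RPM in miR-450a vector libraries, at 670, 1283 and 1398 in miR-450b vector libraries and at 1901, 958 and 1354 in empty vector libraries. The miR-450a vector libraries were again the highest, but the lowest of them lay close to empty vector library 1, and the miR-450b vector and empty vector libraries overlapped. Its coefficient of variation was 30.1% in miR-450a vector cells, 35.1% in miR-450b vector cells and 33.7% in empty vector cells.

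miR-542 was the least abundant. It stood at 301, 337 and 467 RPM in miR-450a vector libraries, at 124, 132 and 274 in miR-450b vector libraries and at 124, 108 and 276 in empty vector libraries. The library numbered 3 was the highest of each group. In miR-450b vector and empty vector cells that library held more than the sum of the other two, which left a narrow gap to the lowest miR-450a vector library. In each library the order was miR-424, miR-503, miR-542. The ranges of miR-424 and miR-503 did not overlap in any group.

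**Figure D1:**
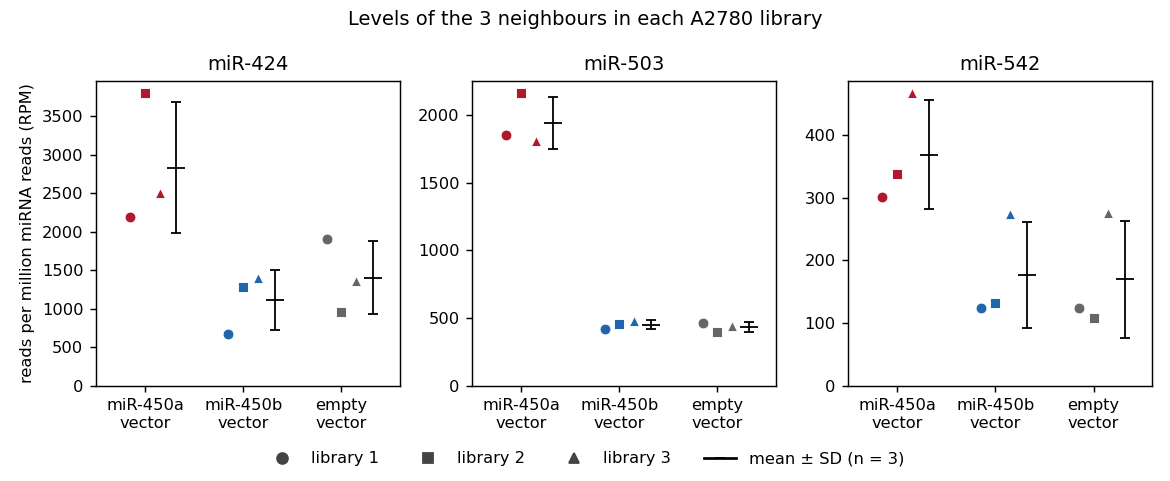
Reads per 1000000 miRNA reads (RPM, linear axes from 0) of miR-424, miR-503 and miR-542 in each library, by vector, with symbols for the library number and bars for the mean and SD (n = 3). miR-503 stands at 1811 to 2165 RPM in miR-450a vector cells and at 394 to 477 in the other 6 libraries, while miR-542 is highest in the library numbered 3 of each group.

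Setting miR-450a vector cells against empty vector cells asks whether the endogenous neighbours of the overexpressed gene differ in these cells. All 3 were higher. In a limma fit over all 406 rows on log2(RPM + 10), a scale that understates changes of low miRNAs, miR-503 rose by 2.14 ± 0.24 (SE, adjusted p = 1.42e-05), or 4.40-fold on that scale. miR-542 rose by 1.17 ± 0.41 (limma adjusted p = 0.0315) and miR-424 by 1.02 ± 0.38 (adjusted p = 0.0391). The background was high: 36.9% of all rows passed in the upward direction at the adjusted p threshold of 0.05, and 37.7% had every miR-450a vector library above every empty vector library. The median change of all rows was 0.44. The change of miR-503 exceeded that of 88.9% of rows, that of miR-542 exceeded 74.4% and that of miR-424 exceeded 70.9%. The rise of the neighbours was thus one that many rows shared, and miR-503 lay furthest from their median.

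The starred arms were called in the same direction. miR-424* had 354, 302 and 416 RPM in miR-450a vector cells and 77.6, 145 and 80.7 in empty vector cells, a rise of 1.77 ± 0.31 on the log2 scale (limma adjusted p = 5.37e-04). miR-542* rose by 1.09 ± 0.31 (adjusted p = 0.0121), with 95.6, 160.0 and 75.4 RPM in miR-450a vector cells against 61.5, 39.4 and 34.9 in empty vector cells. miR-503* was rare, at 24.5, 28.0 and 21.4 RPM in miR-450a vector cells and 8.49, 7.97 and 4.09 in empty vector cells, and rose by 1.05 ± 0.16 (adjusted p = 2.10e-04). In the shares as deposited, of all 11 arms of the cluster, 10 rose and 0 fell, where 36.9% of all rows rose. Among them was miR-450b, which this vector is not named for, at 1.34 ± 0.39 (limma adjusted p = 0.0132). With median-of-ratios scaling, described below, miR-424, miR-542, miR-542* and miR-450b lost their calls, miR-450b at 0.85 (adjusted p = 0.0889). The count includes the products of the vector, which its design raises, and the arm that did not pass was miR-450b* at 0.13 ± 0.22 (adjusted p = 0.628). miR-450a, which the vector encodes, averaged 13262 ± 6504 RPM in miR-450a vector cells and 389 ± 65.8 in empty vector cells (SD, n = 3).

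Each precursor row equalled the sum of its arms to within rounding, so it adds no independent measurement. hsa-mir-503 rose by 2.13 ± 0.24 (limma adjusted p = 9.28e-06), hsa-mir-542 by 1.18 ± 0.34 (adjusted p = 0.00929) and hsa-mir-424 by 1.09 ± 0.33 (adjusted p = 0.0135). Among 284 precursor rows, 43.3% passed in that direction.

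Against the miR-450b vector libraries, the miR-450a vector libraries gave a like picture. They are the same miR-450a vector libraries as above, so this comparison is not independent of the first. miR-503 rose by 2.08 ± 0.24 (limma adjusted p = 1.95e-05), miR-424 by 1.36 ± 0.38 (adjusted p = 0.0100) and miR-542 by 1.09 ± 0.41 (adjusted p = 0.0397). Of all rows, 41.9% passed upwards, and 46.6% had every miR-450a vector library above every miR-450b vector library. miR-424* rose by 1.29 ± 0.31 (adjusted p = 0.00476) and miR-503* by 1.01 ± 0.16 (adjusted p = 2.80e-04). miR-542* did not pass, at 0.77 ± 0.31 (adjusted p = 0.0527). The precursors hsa-mir-503, hsa-mir-424 and hsa-mir-542 changed by 2.08, 1.35 and 1.03, against 49.3% of precursor rows that passed upwards.

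The miR-450b vector gave no call on any neighbour. The differences from the empty vector were 0.06 ± 0.24 for miR-503 (95% interval -0.47 to 0.58, limma adjusted p = 0.912), 0.08 ± 0.41 for miR-542 (-0.82 to 0.99, adjusted p = 0.935) and -0.34 ± 0.38 for miR-424 (-1.18 to 0.49, adjusted p = 0.576). The rises in miR-450a vector cells over empty vector cells had 95% intervals of their own. These were 1.61 to 2.66 for miR-503, 0.27 to 2.07 for miR-542 and 0.19 to 1.86 for miR-424. Only that of miR-503 stayed clear of its interval here. The same empty vector libraries enter both, so only the direct comparison above sets the vectors against each other. Of all rows 4.43% passed upwards and 10.1% downwards. The starred arms did not pass either, with miR-424* at 0.47, miR-542* at 0.32 and miR-503* at 0.03. The precursors hsa-mir-424, hsa-mir-503 and hsa-mir-542 were at -0.26, 0.06 and 0.15, where 5.63% of precursor rows passed upwards. The vector's own product miR-450b had 547, 850.3 and 1544 RPM in miR-450b vector cells, against 71.6, 72.4 and 131 in empty vector cells. A fit without the miR-450a vector libraries, which leaves these differences the same by construction and changes only their error, gave limma adjusted p of 0.911 for miR-503, 0.918 for miR-542 and 0.556 for miR-424.

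**Figure D2:**
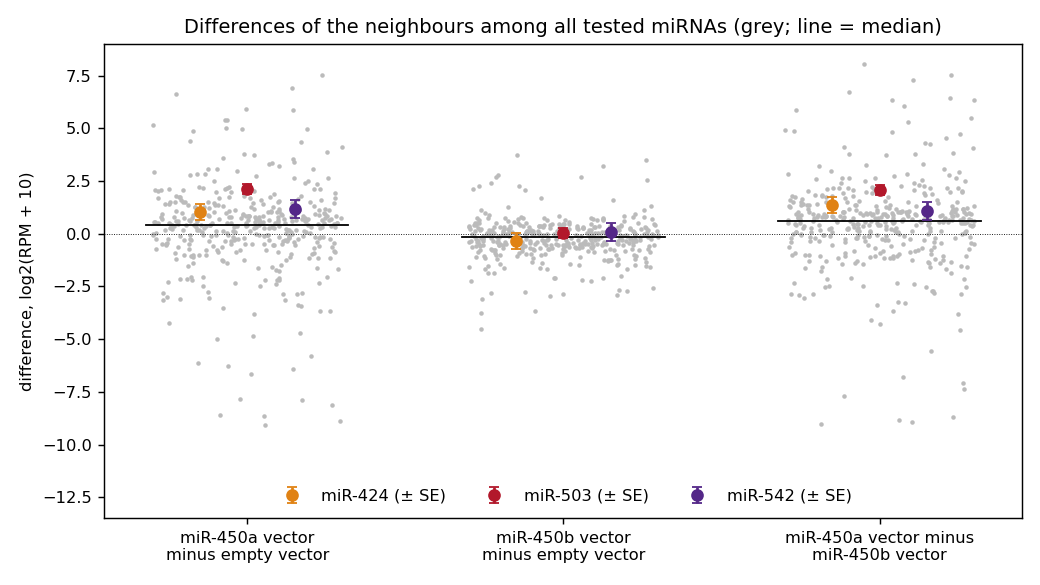
Differences in log2(RPM + 10) between vectors for all 406 tested rows (grey points, black line at their median) and for miR-424, miR-503 and miR-542 (coloured, ± SE). For the miR-450a vector minus the empty vector the neighbours lie at 1.02, 2.14 and 1.17 in a wide cloud with a median of 0.44, and for the miR-450b vector minus the empty vector they lie at -0.34, 0.06 and 0.08.

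A share can rise when other miRNAs fall, so the scaling was varied. The calls of miR-424 and miR-542 changed with it, and also with other settings given below. With median-of-ratios scaling the median change of all rows for the miR-450a vector minus the empty vector moved from 0.44 to -0.02. That scaling centres each library on its median ratio. The move is therefore set by the method, and the split of calls given below depends on it. The change of miR-503 was then 1.63 (limma adjusted p = 1.46e-04), that of miR-542 0.67 (adjusted p = 0.196) and that of miR-424 0.51 (adjusted p = 0.289), where 23.4% of rows passed upwards. With the rows of miR-199a, miR-199b and miR-214 removed, miR-503 was at 1.81 (adjusted p = 7.84e-05), miR-542 at 0.85 (adjusted p = 0.135) and miR-424 at 0.69 (adjusted p = 0.163), with 27.4% of rows called upwards. Against the miR-450b vector, median-of-ratios scaling gave 1.35 for miR-503 (adjusted p = 6.01e-04), 0.63 for miR-424 (adjusted p = 0.185) and 0.38 for miR-542 (adjusted p = 0.499), with 20.7% of rows called upwards. Removing the rows of miR-199a, miR-199b and miR-214 there left 1.73 for miR-503 (adjusted p = 1.31e-04), 1.00 for miR-424 (adjusted p = 0.0498) and 0.74 for miR-542 (adjusted p = 0.186), with 28.2% called upwards. With median-of-ratios scaling 47.2% of all calls against the empty vector were upward, against 66.7% as deposited, and 43.5% against 69.4% in the comparison with the miR-450b vector. For the miR-450b vector minus the empty vector it was 43.3% against 30.5%. The call of miR-503 thus held under each of these scalings, while that of miR-542 was lost in both comparisons under both.

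Of the starred arms, miR-503* kept its call under both scalings, with median-of-ratios values of 0.72 against the empty vector (limma adjusted p = 0.00368) and 0.59 against the miR-450b vector (adjusted p = 0.0120). miR-424* kept it against the empty vector under both, at 1.27 with median-of-ratios scaling (adjusted p = 0.00670). Against the miR-450b vector it lost its call with median-of-ratios scaling, at 0.59 (adjusted p = 0.169), and kept it without the miR-199a, miR-199b and miR-214 rows, at 0.95 (adjusted p = 0.0251). miR-542* lost its call against the empty vector with median-of-ratios scaling, at 0.63 (adjusted p = 0.112), and kept it without those rows, at 0.81 (adjusted p = 0.0499). Both arms of miR-503 were therefore called under each scaling, and neither arm of miR-542 passed with median-of-ratios scaling. The precursors hsa-mir-424 and hsa-mir-542 also lost their calls there, at 0.46 and 0.56 against the empty vector (limma adjusted p = 0.273 and 0.170).

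**Figure D3:**
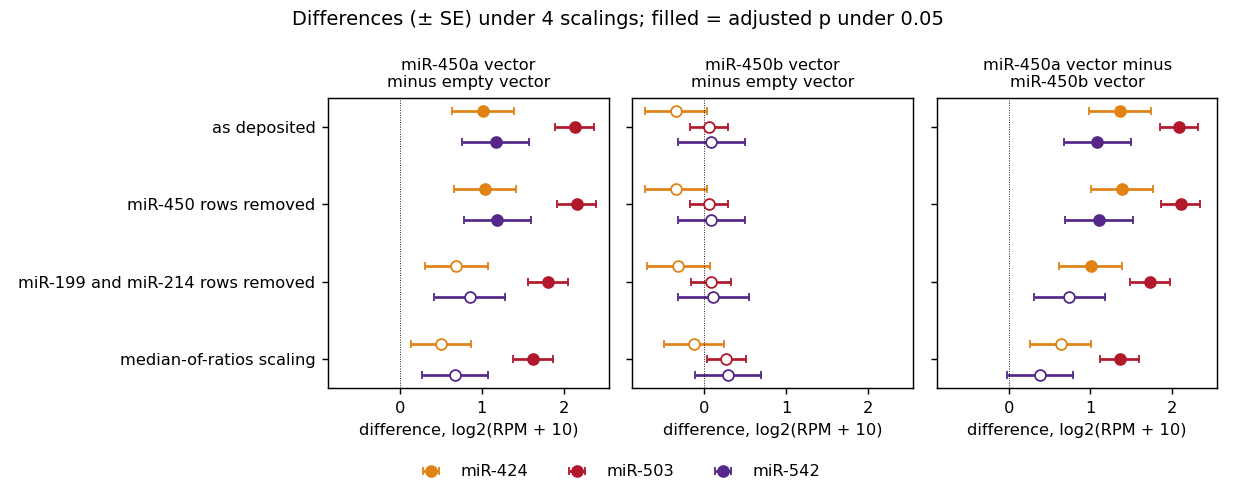
Differences in log2(RPM + 10) with SE for the 3 neighbours under 4 scalings of the libraries, where filled points have an adjusted p under 0.05. For the miR-450a vector minus the empty vector, miR-503 stays filled and moves from 2.14 as deposited to 1.63 with median-of-ratios scaling, and miR-424 and miR-542 turn open at 0.51 and 0.67.

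The calls of miR-424 and miR-542 were also lost when some single libraries were left out, in places with the difference hardly changed. For the miR-450a vector minus the empty vector, miR-424 no longer passed without miR-450a vector replicate 2 (0.79) or 3 (1.09), without miR-450b vector replicate 2 (1.02), or without empty vector replicate 2 (0.78) or 3 (1.02), with limma adjusted p of 0.0535 to 0.140. miR-542 no longer passed without miR-450a vector replicate 2 (1.22) or 3 (0.99), or without empty vector replicate 1 (1.02) or 2 (0.93), with adjusted p of 0.0530 to 0.110. Against the miR-450b vector, miR-542 no longer passed without any of the 3 miR-450a vector libraries or without miR-450b vector replicate 1 or 2, where it was 0.89 to 1.21 (adjusted p of 0.0574 to 0.127). miR-503 passed in each of these fits, at 2.06 to 2.19 against the empty vector and 2.00 to 2.13 against the miR-450b vector.

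The ratio of 2 miRNAs within a library does not depend on its scaling. The ratio of miR-503 to miR-424 was 0.844, 0.569 and 0.725 in miR-450a vector libraries, 0.623, 0.358 and 0.341 in miR-450b vector libraries and 0.245, 0.411 and 0.324 in empty vector libraries. All miR-450a vector libraries lay above all empty vector libraries, and miR-450b vector library 1 lay among the miR-450a vector libraries. On the log2 scale the mean difference from the empty vector was 1.14 in miR-450a vector cells. The exact permutation test, two-sided, gave p = 0.1, the smallest that 3 against 3 allows, and adjusted p = 0.3 over the 24 tests of ratios and shares made. Against the miR-450b vector it was 0.73 (exact p = 0.2, adjusted p = 0.48), and for the miR-450b vector minus the empty vector 0.41 (exact p = 0.4, adjusted p = 0.8).

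The ratio of miR-503 to miR-542 was 6.16, 6.41 and 3.88 in miR-450a vector libraries, 3.36, 3.48 and 1.74 in miR-450b vector libraries and 3.76, 3.65 and 1.59 in empty vector libraries. The miR-450a vector libraries lay above the others, and the library numbered 3 was the lowest of each group. The log2 difference was 0.94 from the empty vector and 0.97 from the miR-450b vector (exact permutation p = 0.1 and adjusted p = 0.3 for each). The ratio of miR-542 to miR-424 was 0.137, 0.0887 and 0.187 in miR-450a vector cells, 0.185, 0.103 and 0.196 in miR-450b vector cells and 0.0652, 0.113 and 0.204 in empty vector cells. These groups overlapped, and the log2 difference of the miR-450a vector from the empty vector was 0.20 (exact permutation p = 0.8, adjusted p = 0.96). Within the neighbours, miR-503 made up 38.3 ± 4.15% of the summed reads in miR-450a vector cells, 27.0 ± 6.51% in miR-450b vector cells and 22.3 ± 4.25% in empty vector cells (SD, n = 3).

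**Figure D4:**
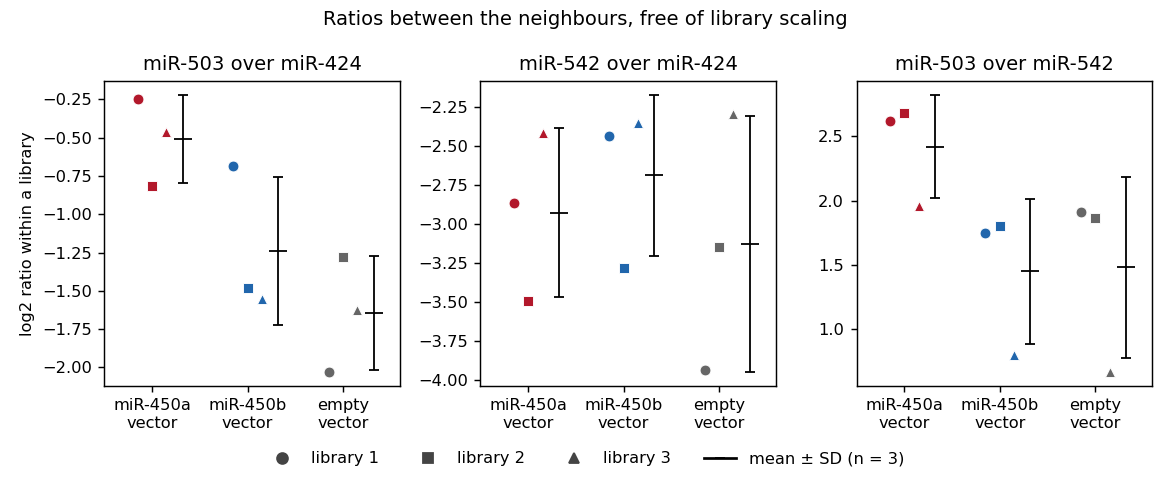
Log2 ratios between the 3 neighbours within each library, by vector, with symbols for the library number and bars for the mean and SD (n = 3). The mean of miR-503 over miR-424 is -0.51 in miR-450a vector cells, -1.24 in miR-450b vector cells and -1.65 in empty vector cells, and the groups overlap for miR-542 over miR-424.

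Together the 3 neighbours held 0.435, 0.631 and 0.478% of miRNA reads in miR-450a vector libraries, 0.121, 0.187 and 0.215% in miR-450b vector libraries and 0.249, 0.146 and 0.207% in empty vector libraries. The miR-450a vector libraries were the highest, by 0.314 percentage points over the empty vector (exact permutation p = 0.1, adjusted p = 0.3). With median-of-ratios scaling this difference was 0.168.

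The balance of the arms differed between the hairpins. The starred arm of miR-503 held 1.31, 1.28 and 1.17% of the reads of its hairpin in miR-450a vector cells, 1.67, 1.44 and 1.55% in miR-450b vector cells and 1.79, 1.98 and 0.923% in empty vector cells. That of miR-424 held 13.9, 7.36 and 14.3% in miR-450a vector cells, 21.4, 9.75 and 7.00% in miR-450b vector cells and 3.92, 13.2 and 5.62% in empty vector cells. That of miR-542 held 24.1, 32.2 and 13.9% in miR-450a vector cells, 28.7, 36.4 and 15.6% in miR-450b vector cells and 33.2, 26.7 and 11.2% in empty vector cells. The starred arm thus kept a small share for miR-503 and a large one for miR-542 in every group, and for miR-542 the library numbered 3 had the lowest share of each group. The exact permutation test gave p of 0.2 to 1 for each comparison between vectors, except for miR-503 between the miR-450a and miR-450b vectors, where the groups did not overlap (a difference of -0.303 percentage points, exact p = 0.1, adjusted p = 0.3).

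**Figure D5:**
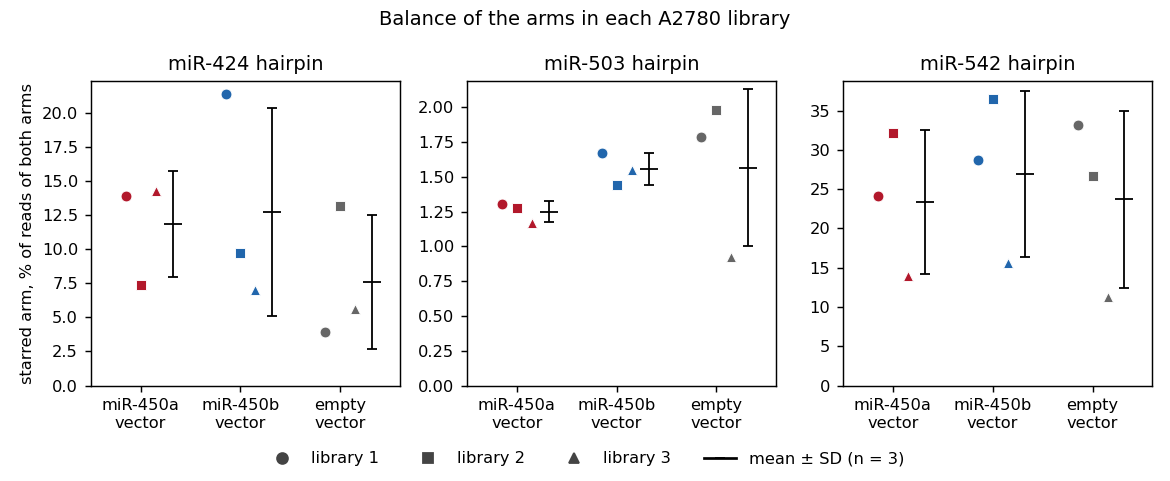
Share of the starred arm in the reads of both arms of the miR-424, miR-503 and miR-542 hairpins in each library (percent, linear axes from 0), by vector, with the mean and SD (n = 3). The means are 11.8, 12.7 and 7.57% for miR-424, 1.25, 1.55 and 1.56% for miR-503 and 23.4, 26.9 and 23.7% for miR-542 for miR-450a vector, miR-450b vector and empty vector cells.

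miR-424 and miR-503 share seed letters with miR-15a, miR-15b, miR-16, miR-195 and miR-497, whose genes lie on other chromosomes. Of these 5, 1 rose in miR-450a vector cells over empty vector cells and 0 fell, beside 36.9% of all rows that rose, with a median change of -0.30 against 0.44 over all rows. The member that rose was miR-497, by 1.14 ± 0.28 (limma adjusted p = 0.00522), with 1004, 1166 and 1071 RPM in miR-450a vector cells against 473, 672 and 357 in empty vector cells. With median-of-ratios scaling miR-497 was at 0.63 and no longer passed (adjusted p = 0.102), and without the miR-199a, miR-199b and miR-214 rows it passed at 0.81 (adjusted p = 0.0294). miR-195, its close genomic neighbour, was at 0.44 (adjusted p = 0.314). miR-16 was at -0.31 (adjusted p = 0.475), miR-15b at -0.30 (adjusted p = 0.490) and miR-15a at -0.30 (adjusted p = 0.651). With median-of-ratios scaling miR-16, miR-15b and miR-15a were each at -0.82 (limma adjusted p = 0.0678, 0.0827 and 0.231). miR-195 was then at -0.06 (adjusted p = 0.908). Between miR-450b vector and empty vector cells none of the 5 passed in limma, at -1.17 to -0.23 and unadjusted p of 0.0534 to 0.534. Between the miR-450a and miR-450b vectors, miR-497 and miR-195 rose, by 1.61 and 1.01 (limma adjusted p = 5.42e-04 and 0.0275), beside 41.9% of all rows that rose. With median-of-ratios scaling miR-497 was at 0.89 (adjusted p = 0.0254) and miR-195 at 0.31 (adjusted p = 0.526). Without the miR-199a, miR-199b and miR-214 rows miR-497 was at 1.26 (adjusted p = 0.00244) and miR-195 at 0.67 (adjusted p = 0.137), so miR-195 lost its call under both.

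miR-16 dominated the family, at 23185 ± 10063 RPM in miR-450a vector cells, 19865 ± 4668 in miR-450b vector cells and 27935 ± 8811 in empty vector cells (SD, n = 3). miR-424 and miR-503 together made up 11.8, 9.88 and 13.1% of the reads of the 7 family members in miR-450a vector libraries. They made up 3.58, 4.45 and 6.71% in miR-450b vector libraries and 3.48, 3.32 and 5.46% in empty vector libraries. The miR-450a vector libraries did not overlap with the others, at 7.50 percentage points above the empty vector and 6.67 above the miR-450b vector (exact permutation p = 0.1 and adjusted p = 0.3 for each). This share is a ratio within a library and so is free of scaling. The family as a whole held 4.26 ± 1.55% of miRNA reads in miR-450a vector cells, 3.25 ± 0.588% in miR-450b vector cells and 4.72 ± 1.85% in empty vector cells.

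The vector products were also set against the neighbours within each library. miR-450a stood to miR-503 at a log2 ratio of 2.27, 2.22 and 3.52 in miR-450a vector cells, against -0.63, 0.14 and -0.10 in miR-450b vector cells and -0.55, 0.04 and 0.02 in empty vector cells. miR-450b stood to miR-542 at 2.14, 2.69 and 2.49 in miR-450b vector cells, at -0.54, -0.60 and -0.67 in miR-450a vector cells and at -0.79, -0.58 and -1.07 in empty vector cells. The vectors set these ratios, so they are given as a description.

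The miRNAs whose profiles over the 9 libraries were most like each neighbour differed between the 3. These Pearson correlations of log2(RPM + 10) among 403 human rows are descriptions, since libraries and group differences are shared. For miR-503 they were miR-450a-1* (r = 0.999), miR-10b* (0.998), miR-618 (0.996), miR-196b* (0.994) and miR-708 (0.993). All of these were high in the 3 miR-450a vector libraries and low in the other 6. Among them, miR-450a-1* is an arm of a miR-450a hairpin, and the miR-450a vector carries pri-miR-450a. For miR-424 the most alike were miR-18a, a member of the miR-17-92 cluster (r = 0.949), miR-942* (0.940), miR-3611 (0.934), miR-340* (0.929) and miR-29c* (0.918). miR-18a stood at 10249, 31589 and 11082 RPM in miR-450a vector cells, at 2410, 5563 and 6812 in miR-450b vector cells and at 16586, 5019 and 7303 in empty vector cells. Its high libraries, miR-450a vector replicate 2 and empty vector replicate 1, were also those with the most miR-424 in their groups.

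For miR-542 the most alike were miR-340 (r = 0.967), miR-561 (0.940), miR-101 (0.933), miR-3677-3p (0.925) and miR-576-3p (0.920). miR-101 stood at 6340, 6126 and 7927 RPM in miR-450a vector cells, at 3034, 3438 and 8308 in miR-450b vector cells and at 3504, 3507 and 6138 in empty vector cells, again highest in the library numbered 3. With each library set against its own group mean, miR-424 and miR-503 deviated together (r = 0.934 over the 9 libraries), while miR-542 followed them less (r = 0.315 with miR-424 and 0.258 with miR-503). In the same deviations, with miR-450b and miR-450a in that order, miR-542 had r = 0.919 and 0.518. For miR-424 these were 0.463 and 0.17, and for miR-503 0.33 and -0.125. With the members of its seed family outside the cluster, miR-424 had r from -0.305 with miR-497 to 0.738 with miR-15a. With the same members miR-542 had r from -0.827 with miR-15b to -0.050 with miR-195. Some rows outside the cluster deviated as closely as miR-424 and miR-503, but these were picked as the most alike of 403 human rows. miR-424 had r = 0.970 with miR-18a, and miR-542 had r = 0.972 with miR-561 and 0.949 with miR-340. Close deviations were thus also found outside the cluster. How common they are among all rows was not tested.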

How the data were processed

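Small RNA libraries of A2780 cells were read as 50-cycle single reads, per the labels' protocols. The authors deposited relative read frequencies, per the file headers: a fraction of 1 per library for every mature miRNA (1410 rows, 377 of them viral) and every precursor (934 rows), with libraries adding up to 1. No source used here gives the aligner or the miRNA annotation. TopHat and Cuffdiff appear, without a role, in the submitters' processing notes. With no read totals, no count test, counting interval of a share or detection limit was computed; the intervals given are limma's for differences between groups.

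Fractions were multiplied by 1000000 (RPM), rows that averaged 10 RPM or more over all 9 libraries entered the fit, and log2(RPM + 10) was fitted with limma 3.58.1 (R 4.3.3, intensity trend) in 1 model of the 3 groups, with Benjamini-Hochberg adjustment over all rows of a comparison. All 3 neighbours and their starred arms passed the filter. On simulated data from the 406 mature rows with 100 rows changed at each size, the miR-450a vector comparison with the empty vector called 69% of the rows moved by 1 on the log2 scale and 94% of those moved by 2, and 6 rows that had not been moved. Rows were moved up and down in equal numbers with independent noise. False calls from a shift of shares were therefore not simulated. Ratios and shares were compared by two-sided exact permutation tests (scipy 1.17.1). Sequences came from RefSeq tables (GRCh38.p14).

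The neighbours and lists were chosen with earlier results of these data known. Named were the neighbours, their starred arms and precursors, all arms of miR-450a and miR-450b, the miR-15/16 family and the 5 human miRNAs most correlated with each neighbour; miR-199a, miR-199b and miR-214 are named only for scaling and the marker list. Same-numbered libraries did not deviate together in each pair of groups, so the numbers were not used to pair libraries. The fits were repeated at pseudocounts of 1 and 100 RPM, unfiltered or at a minimum mean of 100 RPM, with median-of-ratios scaling, after removing the miR-450 rows or those of miR-199a, miR-199b and miR-214, with no intensity trend, on each pair of groups alone, with a replicate block, and with single libraries left out.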

Additional observations from a re-analysis of the deposited data

How the results depend on the processing

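The direction of the 3 neighbours between the miR-450a vector and either other group held in each of the 19 alternatives run per comparison, and miR-503 passed in each. For the miR-450a vector minus the empty vector, calls of miR-424 and miR-542 were lost without a filter (1.02 and 1.17), with median-of-ratios scaling (0.51 and 0.67) and without the miR-199a, miR-199b and miR-214 rows (0.69 and 0.85). Against the miR-450b vector, miR-542 was lost under the same 3 (1.09, 0.38 and 0.74) and miR-424 with median-of-ratios scaling (0.63). Without a filter more rows were tested, but why any of these calls was lost was not tested. Leaving out a library gave miR-424 0.78 to 1.27 and miR-542 0.93 to 1.56 against the empty vector, and 1.03 to 1.56 and 0.89 to 1.43 against the miR-450b vector. For the miR-450b vector minus the empty vector, the sign of uncalled differences turned when a library was left out, at -0.0061 to 0.11 for miR-503 and -0.26 to 0.48 for miR-542, while miR-424 stayed below 0, at -0.59 to -0.01. Precursors reversed there too, hsa-mir-503 at -0.0033 to 0.113 and hsa-mir-542 at -0.10 to 0.44.

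Same-numbered libraries had deviations from their group means that correlated at -0.507 to 0.641, so the numbers gave no pairing that held throughout. miR-542 was nonetheless highest in the same-numbered library of every group. Whether libraries of a number share a batch is not known. With the replicate number as a block, miR-424 lost its call for the miR-450a vector minus the empty vector (1.02, limma adjusted p = 0.0603), and no other call of a neighbour changed. The rows past the threshold numbered 230 with the block against 225 without it.

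The 225 rows past the threshold for the miR-450a vector minus the empty vector were 341 without a filter and 137 at a mean of at least 100 RPM, and the others fell to 38 (of 59) and 140 (of 245) at 100 RPM. For the summed share, median-of-ratios scaling gave 0.168 and 0.166 percentage points for the miR-450a vector minus the empty vector and minus the miR-450b vector, against 0.314 and 0.340. Of 24 differences in ratios and shares, 10 changed sign in at least 1 alternative. Depth is unknown, so counting error could not be separated from the spread between libraries.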
